A study of Homo sapiens with 4 samples.

Results

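Chromosome 5 held 8909 of the 151102 open chromatin regions that were assembled from the 4 libraries, and the other 21 autosomes held 138306. A region was obtained by widening each summit, the point of strongest signal in a called peak, by 250 bp on each side and merging windows that overlapped, and every region on chromosome 5 was kept. The chromosome was selected on measured values, namely the low ranks of its regions in the enzalutamide-resistant libraries, so each LNCaP-against-resistant value given here describes how the members were chosen and carries no test. ATAC-seq, in which a transposase cuts and tags accessible DNA, had been run on LNCaP, an androgen-sensitive human prostate cancer cell line labelled WT (2 libraries), and on LNCaP-resistance cells treated with enzalutamide (2 libraries). Enzalutamide is an antiandrogen drug, and the resistant cells were derived by growing LNCaP in hormone-stripped serum with rising amounts of the drug, so both groups share the LNCaP background and the labels give both the same RPMI-1640 medium. The labels number the libraries of each group 1 and 2 and call that number a batch. The labels do not say whether the libraries came from separate cultures, and the study's methods speak of independent replicates only in general, so the spread between them may be technical, and 2 against 2 libraries cannot give an exact two-sided permutation p under 0.333.

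Accessible regions near the starts of genes are mostly promoters, where transcription begins, and those far from genes are mostly enhancers, which act on genes at a distance and vary more between cell states. Chromosome 5 carries long gene-poor stretches as well as dense groups of genes, among them SRD5A1, which encodes a steroid 5-alpha-reductase that makes dihydrotestosterone, the tumour suppressor APC, and the chromatin remodeller CHD1. A summit score is the strength of evidence for the peak on a −log10 scale and depends on sequencing depth, so scores were turned into percentiles within each library, where 100 is the strongest summit.

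The 8 promoters below are shown because they carry the results described further on. They run from 250 bases before to 50 bases after the RefSeq start on GRCh38.p14, 5′ to 3′ on the strand of the gene, and capitals mark matches on either strand to 7 motifs. Searched were the ETS factor core CCGGAAG, the NRF1 core GCGCATGC, the NF-Y box CCAAT and the SP factor box GGGCGG. The others searched were the TATA box written TATAAA, the forkhead factor core TGTTTAC and the CREB and ATF factor site TGACGTCA. RBM27 and ADGRV1 were among the 3 shared regions with the highest mean percentile, SMAD5 had a summit at its start itself in the resistant libraries alone, NR2F1 and SRD5A1 ranked higher in them, and HSD17B4, NDUFS4 and DAB2 ranked lower.
RBM27, chr5:146203355-146203654, plus strand: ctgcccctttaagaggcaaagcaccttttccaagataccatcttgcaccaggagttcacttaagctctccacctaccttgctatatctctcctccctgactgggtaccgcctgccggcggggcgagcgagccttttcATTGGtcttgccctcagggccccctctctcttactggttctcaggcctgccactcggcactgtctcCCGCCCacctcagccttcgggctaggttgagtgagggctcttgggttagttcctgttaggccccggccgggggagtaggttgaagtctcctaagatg
ADGRV1, chr5:90558547-90558846, plus strand: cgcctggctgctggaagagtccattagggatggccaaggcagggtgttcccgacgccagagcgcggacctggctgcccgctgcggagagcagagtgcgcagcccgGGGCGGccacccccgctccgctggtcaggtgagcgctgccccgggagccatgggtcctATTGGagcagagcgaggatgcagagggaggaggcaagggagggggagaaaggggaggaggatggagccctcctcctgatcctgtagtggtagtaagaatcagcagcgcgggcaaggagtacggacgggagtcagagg
SMAD5, chr5:136132595-136132894, plus strand: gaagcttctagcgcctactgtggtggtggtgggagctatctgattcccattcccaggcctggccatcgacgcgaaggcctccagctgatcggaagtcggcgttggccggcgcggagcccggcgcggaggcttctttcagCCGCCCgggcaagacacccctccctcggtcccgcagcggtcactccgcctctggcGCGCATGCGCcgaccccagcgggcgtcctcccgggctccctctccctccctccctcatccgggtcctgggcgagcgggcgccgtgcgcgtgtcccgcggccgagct
NR2F1, chr5:93582972-93583271, plus strand: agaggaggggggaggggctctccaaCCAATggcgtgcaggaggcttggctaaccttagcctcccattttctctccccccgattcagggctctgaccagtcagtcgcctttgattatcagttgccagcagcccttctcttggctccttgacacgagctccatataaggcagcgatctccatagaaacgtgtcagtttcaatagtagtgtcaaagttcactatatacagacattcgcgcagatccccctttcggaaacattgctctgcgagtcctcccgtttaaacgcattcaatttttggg
SRD5A1, chr5:6633190-6633489, plus strand: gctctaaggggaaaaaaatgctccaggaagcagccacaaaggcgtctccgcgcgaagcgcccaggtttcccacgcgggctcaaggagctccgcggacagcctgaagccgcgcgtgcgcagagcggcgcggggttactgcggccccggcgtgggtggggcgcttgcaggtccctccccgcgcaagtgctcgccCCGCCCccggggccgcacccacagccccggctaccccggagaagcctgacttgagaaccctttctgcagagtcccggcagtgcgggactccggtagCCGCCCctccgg
HSD17B4, chr5:119452247-119452546, plus strand: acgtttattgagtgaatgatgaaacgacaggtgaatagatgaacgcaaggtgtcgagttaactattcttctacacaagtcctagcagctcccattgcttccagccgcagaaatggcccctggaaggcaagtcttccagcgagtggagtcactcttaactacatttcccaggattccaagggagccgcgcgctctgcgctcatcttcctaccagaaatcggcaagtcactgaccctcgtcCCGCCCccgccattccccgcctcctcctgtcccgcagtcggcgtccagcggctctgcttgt
NDUFS4, chr5:53560389-53560688, plus strand: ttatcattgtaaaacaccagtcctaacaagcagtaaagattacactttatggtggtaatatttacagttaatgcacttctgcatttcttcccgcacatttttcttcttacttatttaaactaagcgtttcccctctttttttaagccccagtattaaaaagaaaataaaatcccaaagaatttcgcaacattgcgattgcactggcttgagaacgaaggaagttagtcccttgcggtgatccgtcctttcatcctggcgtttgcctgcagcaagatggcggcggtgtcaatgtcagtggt
DAB2, chr5:39424931-39425230, minus strand: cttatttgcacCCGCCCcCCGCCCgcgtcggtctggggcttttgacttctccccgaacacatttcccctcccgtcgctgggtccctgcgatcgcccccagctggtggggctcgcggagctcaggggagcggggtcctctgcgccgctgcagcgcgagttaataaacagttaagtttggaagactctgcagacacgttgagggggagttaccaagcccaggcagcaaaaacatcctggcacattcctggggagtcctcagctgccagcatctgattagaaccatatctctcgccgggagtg

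The RBM27 promoter held 1 CCAAT and 1 SP match, as did the ADGRV1 promoter. SMAD5 held 2 overlapping NRF1 matches and 1 SP match, NR2F1 held 1 CCAAT match, SRD5A1 and DAB2 held 2 SP matches each, HSD17B4 held 1, and NDUFS4 held none of the 7 motifs in this window. The number of CpG dinucleotides ranged from 10 in RBM27 and NDUFS4 to 36 in SMAD5.

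The libraries held 117245 and 107344 summits in LNCaP and 70866 and 45618 in resistant cells. Read counts do not accompany the summits, so their depth is unknown, and the number of summits differs between the groups. The luminal prostate genes KLK3, KLK2, TMPRSS2, HOXB13 and FOXA1 each had a summit within 3 kb of a gene end in every library, and PTPRC, the defining leukocyte gene, had none, while 1 of 3 blood genes had one in LNCaP replicate 1 and 2 of 3 in each other library. All 4 stromal and endothelial genes examined also had a summit in every library, from the 17.5 percentile of COL1A2 in resistant replicate 2 to the 94.1 percentile of COL1A1 in resistant replicate 1. A summit at a gene end was not read as expression.

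Chromosome 5 held a smaller share of the summits in the resistant libraries than in LNCaP. It held 7105 and 6434 summits in the LNCaP libraries, which was 6.21% and 6.14% of the autosomal summits, and 3632 and 2314 in the resistant libraries, which was 5.27% and 5.21%. The libraries of the 2 cell types did not overlap. The share was 6.18% ± 0.0510 in LNCaP and 5.24% ± 0.0416 in resistant cells (SD, n = 2), a change of −0.936 percentage points, with −0.942 between the replicate 1 libraries and −0.929 between the replicate 2 libraries. This was the second-lowest change of the 22 autosomes, after chromosome 2 at −1.25, while chromosome 19 gained 1.66. Taken over all its summits the chromosome did not rank low within a library, with medians at the 50.7 and 48.8 percentiles for LNCaP and the 49.0 and 49.3 percentiles for resistant cells. Its low rank appeared among the regions that the libraries shared.

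Of the 8909 regions, 1662 (18.7%) had a summit in all 4 libraries and are called shared, 2753 (30.9%) had one in both LNCaP libraries and neither resistant library and are called LNCaP-specific, and 270 (3.03%) had the opposite pattern and are called resistant-specific. Another 3047 were found in a single library and 1177 in some other combination. LNCaP-specific regions were 53.3% of the 5161 regions of both LNCaP libraries, against 48% on the other autosomes. Resistant-specific regions were 12.8% of the 2104 regions of both resistant libraries, against 14.1% on the other autosomes. Both shares were displaced from the background in the direction of loss, the first by more than the second.

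Among the LNCaP regions of chromosome 5, 45.2% had a summit in resistant replicate 1 and 33.6% in resistant replicate 2 (95% Wilson intervals 43.9 to 46.6% and 32.4 to 34.9%, counting error only). The corresponding shares on the other autosomes were 50.6% and 38.7%. The resistant libraries differed from each other by more than chromosome 5 did from the background, so the comparison was made within each library, where chromosome 5 was lower by −5.34 and −5.03 points (mean −5.19 ± 0.220, SD, n = 2). Using the replicate 1 libraries alone the difference was −5.41, and using the replicate 2 libraries alone it was −4.57. Chromosome 5 was third-lowest of the 22 autosomes in both resistant libraries.

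The shared regions stood high in LNCaP and low in resistant cells. Their median percentile was 81.5 in LNCaP replicate 1, 79.2 in LNCaP replicate 2, 72.0 in resistant replicate 1 and 57.7 in resistant replicate 2, beside 78.9, 76.7, 74.5 and 60.9 for the shared regions of the other autosomes. Chromosome 5 therefore stood above the others by 2.59 and 2.43 points in LNCaP and below them by −2.45 and −3.18 points in resistant cells. The resistant minus LNCaP difference of these offsets was −5.32 points, with a pooled SD between replicates of 0.370, and it was −5.58 within replicate 1 and −6.61 within replicate 2. Chromosome 5 had the highest LNCaP replicate 1 median of the 22 autosomes and the next to highest in LNCaP replicate 2, and the third-lowest median in each resistant library.

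**Figure D1:**
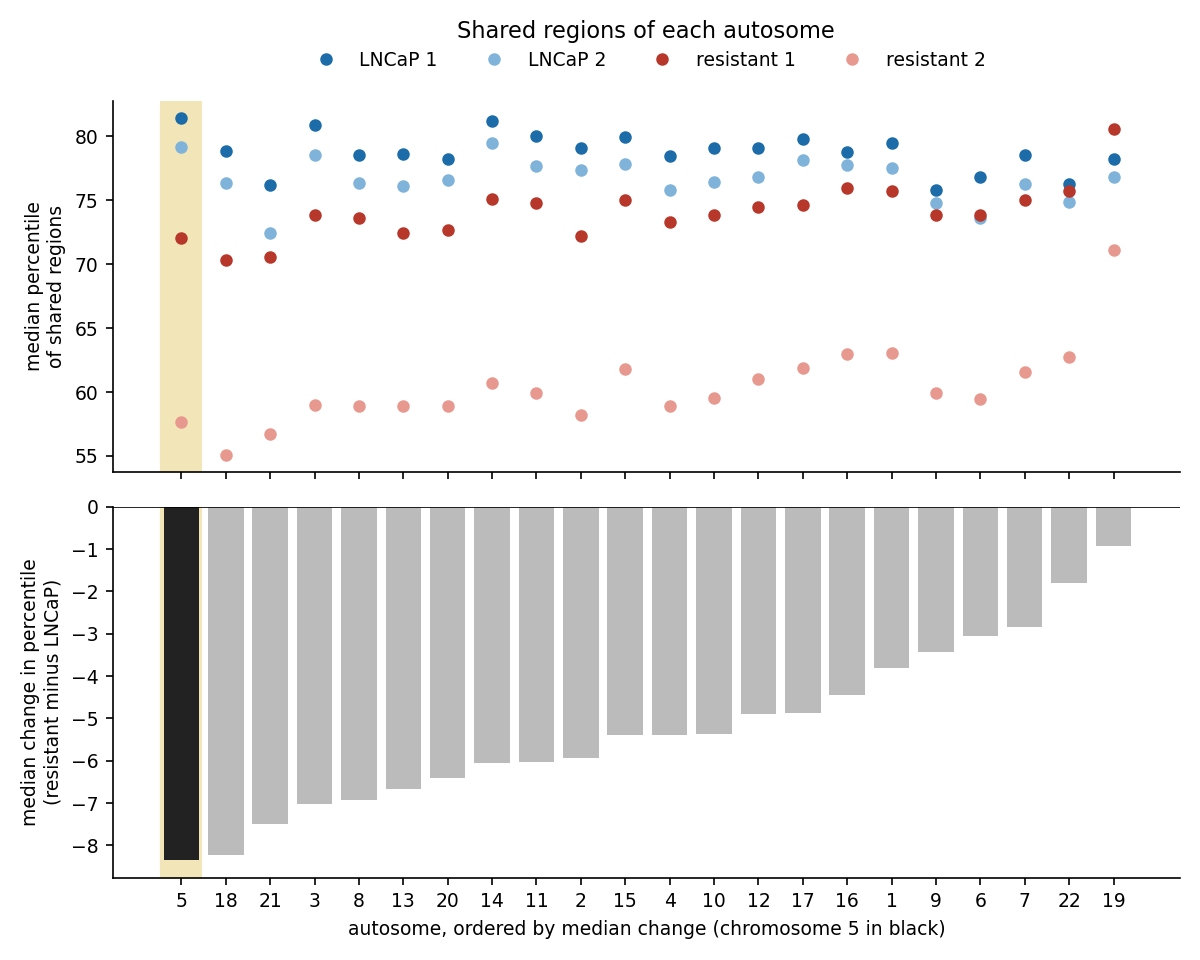
The upper panel gives the median percentile of the shared regions of each autosome in each of the 4 libraries (points), and the lower panel the median over regions of the change in mean percentile (resistant minus LNCaP, bars), with autosomes ordered by that change. Chromosome 5 lies at −8.35, next to chromosome 18 at −8.22, and combines a high LNCaP level with a low resistant level.

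The median change per region was −8.35 points, the lowest of the 22 autosomes and the value by which the chromosome stands at the end of the ranking. Chromosome 18 followed at −8.22, chromosome 19 stood at the other end at −0.926, and the regions of the other autosomes together had a median of −4.61. Both resistant percentiles lay below both LNCaP percentiles in 830 shared regions (49.9%, against 41.7% on the other autosomes), above them in 227 (13.7%, against 17.9%), and overlapped them in 605. This split was not the same in lists of equal length. When the 45618 strongest summits of each library were used, 341 of 1120 shared regions of chromosome 5 (30.4%) lay below and 385 (34.4%) above, with a median change of 0.242, while on the other autosomes 23.7% lay below and 43.0% above, with a median change of 4.70. The sign of the change thus differed between the full and the equal-length lists, which also differ in the regions that are shared. The distance of chromosome 5 below the other autosomes was present with both.

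Regions were divided by their distance from genes, since promoters and distal sites differ in kind. A region was near when its middle lay within 3 kb of either end of a RefSeq gene. Chromosome 5 had 2262 near regions (25.4%, against 30.3% on the other autosomes, and sixth-lowest of 22) and 6647 away from gene ends. Of its shared regions 44.8% were near, against 50.1% elsewhere. On chromosome 5, 65.6% and 55.8% of near LNCaP regions were found in the resistant libraries, against 37.9% and 25.7% of away regions, and the part of the smaller near share in the lower total was not tested.

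Near and away regions were each lower in presence than their counterparts. Near regions were found less often than near regions of the other autosomes by −3.02 and −3.56 points, and away regions by −4.10 and −3.19 points. The near difference depended on the settings, since its mean of −3.29 became −0.622 when near meant 1 kb, −0.893 when only the ends of protein-coding genes were used, and −1.23 with an equal number of summits per library. At 1335 regions within 3 kb of a start in the RefSeq promoter table, some of which lie inside a gene, 79.0% and 71.2% of the LNCaP regions were found, against 79.2% and 71.8% on the other autosomes, a mean difference of −0.400 ± 0.358 (SD, n = 2). That difference was −1.59 without LNCaP replicate 1, −1.64 without LNCaP replicate 2, −0.188 without resistant replicate 2, and above 0 in the stricter and the equal-number lists (0.514 and 1.28). At the 417 regions near a 3′ end alone the mean difference was −0.0258 ± 1.44. The 650 near regions of neither kind, such as those by genes without a listed strand, differed by −10.8 and −11.9 points.

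The rank difference had another shape. Near gene ends the shared regions of chromosome 5 had medians of 85.3 and 83.9 in LNCaP and 82.4 and 73.7 in resistant cells, which placed them 3.29 and 3.59 points above the near regions of other autosomes in LNCaP and −0.328 and −1.22 points below in resistant cells. Near listed starts the offsets were 2.94 and 2.85 points in LNCaP and 0.0572 and −0.231 points in resistant cells. Away from gene ends they were 2.61 and 2.01 points in LNCaP and −1.36 and −0.457 points in resistant cells. In these 3 classes the larger part of the displacement was a high rank in LNCaP, and the low resistant rank of the chromosome as a whole was smaller once near and away regions were read apart. Smaller classes differed from this, since the 72 shared regions near a 3′ end alone stood at −2.95 and −2.37 points in LNCaP and 0.174 and −0.281 in resistant cells, and the 131 near regions of neither kind at 4.07 and 4.91 points and then −3.24 and −7.66. Among the near regions the median change of −2.31 points was the lowest of the 22 autosomes (−0.599 for the other autosomes together), and among the away regions −16.2 points was the sixth-lowest (−13.7 for the others).

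**Figure D2:**
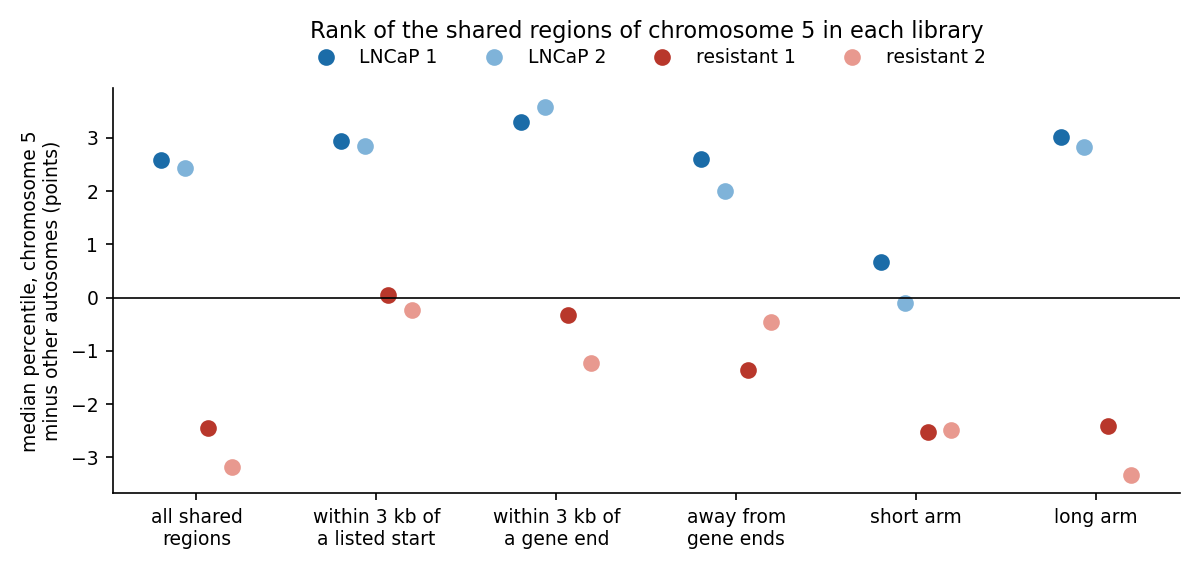
Each point is the median percentile of the shared regions of chromosome 5 in 1 library minus that of the other autosomes (percentile points), for all shared regions, for position classes compared with the same class elsewhere, and for the arms compared with all other autosomal shared regions. The LNCaP points lie above 0 at starts, near ends and away from ends, where the resistant points lie between −1.36 and 0.0572.

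The LNCaP level itself was related to presence, so LNCaP regions were set side by side in 10 steps of mean LNCaP percentile. Chromosome 5 was lower than the other autosomes in all 10 steps in both resistant libraries, by between −1.79 and −10.6 points. Among the 643 regions between the 40 and 50 percentiles, 30.2% and 16.3% were found, against 37.4% and 23.2% elsewhere. Among the 632 regions above the 90 percentile, 82.1% and 74.4% were found, against 83.9% and 76.9%. The strongest LNCaP regions were thus kept nearly as often as elsewhere, and the distance was wider in the middle of the range. Near gene ends the chromosome was lower in 8 and 9 of the 10 steps, and away from them in 10 and 9. The median change of the shared regions was lower than elsewhere in 7 of the 10 steps. The differences from the other autosomes ran from −9.18 points between the 80 and 90 percentiles to 15.1 points under the 10 percentile, where chromosome 5 had 4 shared regions, and were 3.57 and 1.99 in the other steps above 0.

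**Figure D3:**
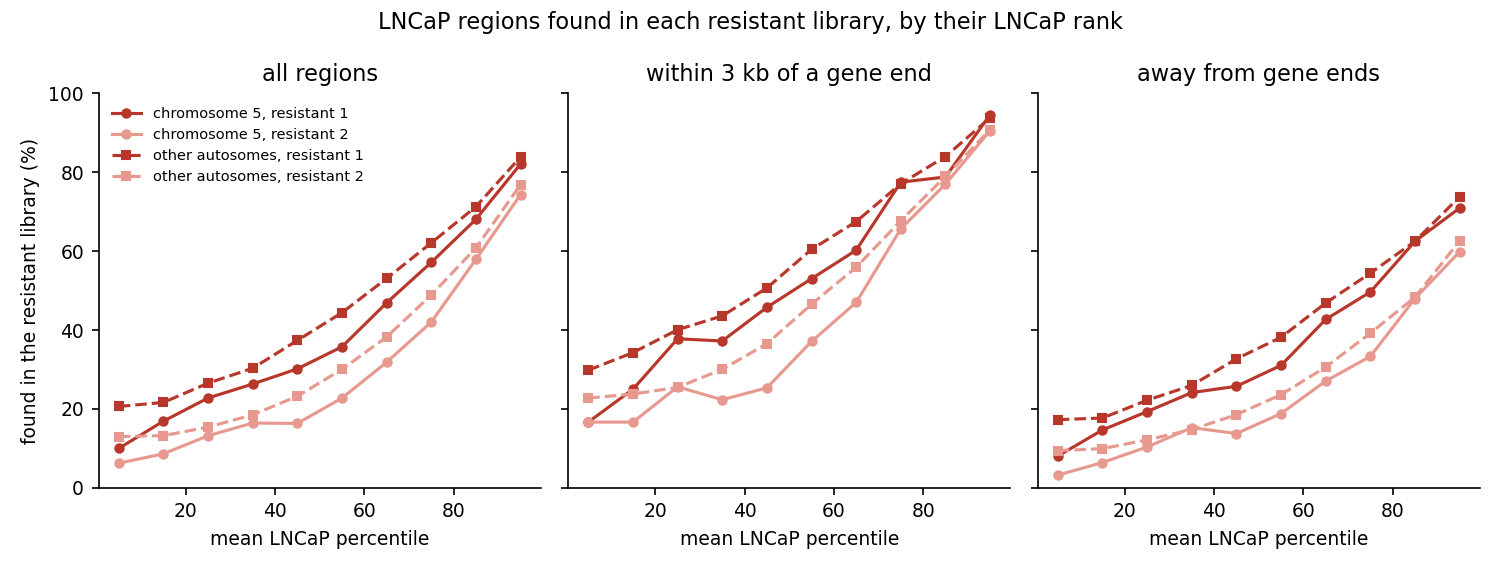
The share of LNCaP regions found in each resistant library (%) is plotted against their mean LNCaP percentile in 10 steps, for all regions, near regions and away regions, with chromosome 5 as circles and solid lines and the other autosomes as squares and broken lines. In the panel of all regions the chromosome 5 curve lies under the other curve of the same library at all 10 points.

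Both arms were lower in presence, the short arm by more. The arms were divided at 48.0 Mb, the middle of the widest stretch without a summit (46.4 to 49.6 Mb), which gave 2036 regions on the short arm and 6873 on the long arm. On the short arm 41.1% and 30.2% of LNCaP regions were found in the resistant libraries, −9.51 and −8.47 points from the other autosomes, and on the long arm 46.4% and 34.6%, −4.12 and −4.02 points from them. The arms' differences from the background did not overlap. Near gene ends the short arm was lower by −10.1 and −8.30 points and the long arm by −1.10 and −2.27 points. The short arm's shared regions were at 0.676 and −0.0946 points from the other autosomes in LNCaP and −2.53 and −2.48 points in resistant cells, whereas the long arm stood at 3.03 and 2.84 points in LNCaP and −2.42 and −3.33 points in resistant cells. The difference of offsets was −2.80 on the short arm, where leaving out single libraries gave −1.56 to −4.75, and −5.80 on the long arm, where it gave −5.49 to −6.53. This order of the arms was the opposite with scores of at least 10 (−8.64 and −6.07) and with an equal number of summits per library (−8.06 and −6.84), so no order of the arms in rank is given. Away from gene ends the short arm's difference of offsets was 0.749 with a pooled SD of 0.783. The median change per region was −8.20 points on the short arm and −8.35 on the long arm.

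The displacement was spread along the chromosome in 1 Mb bins. Of 172 bins with at least 5 LNCaP regions, 122 (70.9%) had a lower mean share found than the 44.6% of all LNCaP regions of the other autosomes. Of the bins of the other autosomes, 55.7% were below that same value. The median over the 172 bins was 39.4%, against 42.9% over the bins of the other autosomes. Of 132 bins with at least 5 shared regions, 95 (72.0%) had a median change below −4.61, the median over the shared regions of the other autosomes, against 55.1% of the bins elsewhere. These were 17 of 26 bins on the short arm and 78 of 106 on the long arm. The bin medians ran from −39.3 to 12.7, and 6 bins, all on the long arm, were above 0. The lowest was at 20 to 21 Mb with 5 shared regions, and the highest was at 158 to 159 Mb with 7. Neighbouring bins resembled each other little, with a Pearson r of 0.106 over 107 adjacent pairs on chromosome 5 and 0.150 over 1526 pairs elsewhere, given as a description because all bins come from the same 4 libraries.

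**Figure D4:**
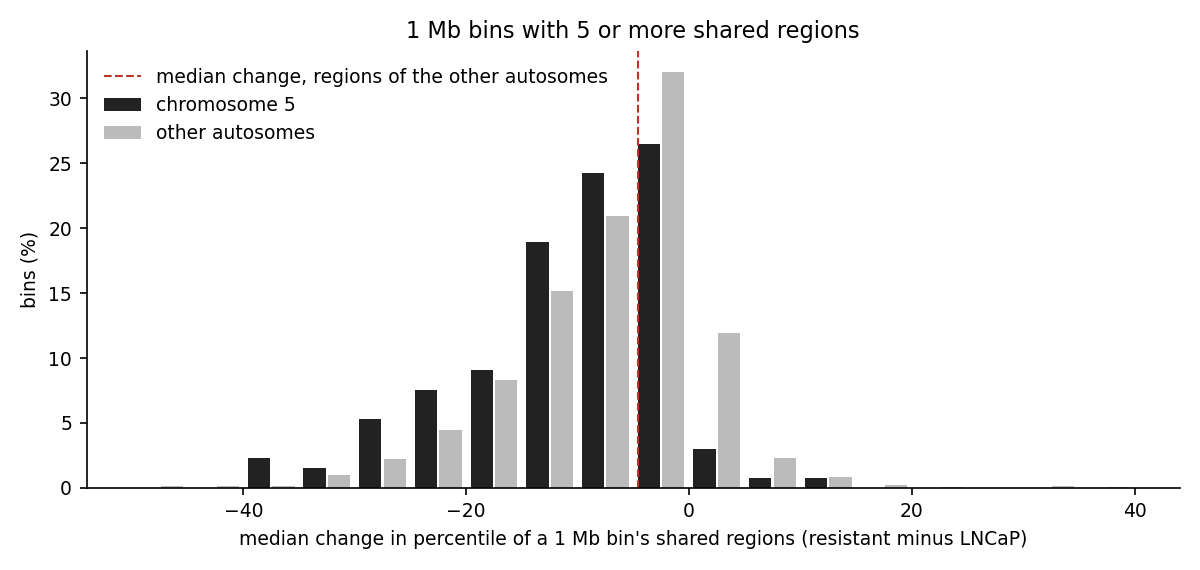
Bars give the percentage of 1 Mb bins (y axis) by the median change in percentile of their shared regions (x axis, resistant minus LNCaP, steps of 5 points), for the 132 bins of chromosome 5 and the 1874 of the other autosomes, and the broken line marks −4.61. The chromosome 5 bars lie further to the left, with 72.0% of bins below the line against 55.1%.

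In stretches of 20 Mb from the end of the short arm the median change was −10.6, −7.15, −10.4, −5.73, −9.75, −10.6, −10.1, −6.58 and −6.84 points, and −3.30 in the last stretch from 180 to 182 Mb, which held 31 shared regions. All stretches but the last lay below the −4.61 of the other autosomes. The mean share found was lowest at 0 to 20 Mb (33.3%) and at 100 to 120 Mb (34.6%), and highest in the last stretch (54.3%), which also had the highest near share (49.2%), while the stretch from 100 to 120 Mb had the lowest (15.6%). The near share of the stretch from 0 to 20 Mb was 25.2%, close to that of the whole chromosome, and its part in presence was not tested.

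The longest run of bins below −4.61 comprised 13 usable bins between 94 and 115 Mb (chr5:94000001-115000000). Chromosome 10 also had a run of 13, and the longest runs of the other autosomes ranged from 2 to 12. With the passed-over bins included, the stretch held 828 regions, of which 134 were shared, 276 LNCaP-specific and 25 resistant-specific. Its shared regions had a median change of −12.3 points, 41.9% and 28.5% of its LNCaP regions were found in the resistant libraries, and 16.8% of its regions were near a gene end. Among its 53 protein-coding genes are ELL2, an androgen-responsive elongation factor, CAST, which encodes the calpain inhibitor, PCSK1, a prohormone convertase of neuroendocrine cells, ERAP1, an aminopeptidase that trims antigenic peptides, CHD1, PAM, which amidates neuropeptides, EFNA5, an ephrin ligand, CAMK4, a calcium-dependent kinase, and the colorectal tumour suppressor genes APC and MCC. CHD1 lies in the passed-over bin at 98 Mb. By the strongest summit within 3 kb of a gene end, PCSK1 and MCC changed by −13.8 and −11.9 points, and CHD1 and APC by −0.815 and −0.206. ELL2, PAM and EFNA5 changed by 3.64, 1.37 and 8.40 points, so genes of the stretch did not all rank lower.

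The 3 shared regions with the highest mean percentile were picked over all 4 libraries, so their high rank in each is no result. At the RBM27 start, a gene for an RNA-binding protein, the region chr5:146203244-146203760 stood at a percentile of at least 99.94 in every library. The region at the start of ADGRV1, an adhesion G protein-coupled receptor (chr5:90558456-90558960), stood at 99.94 and 99.97 in LNCaP and 99.94 and 99.81 in resistant cells, and its summits fell between 87 and 91 bases before the start. The third, chr5:108748622-108749130, lay within the tyrosine kinase gene FER, 979 bp from its listed start. The changes of these 3 regions were −0.0301, −0.0785 and −0.0766 percentile points.

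Strong LNCaP regions without any resistant summit were found both near and away from genes. Near gene ends the 3 with the highest LNCaP percentiles were at LOC105374655 (chr5:12574471-12575016, 99.3 and 98.9), at MAML1, a co-activator of Notch signalling (chr5:179777903-179778412, 97.6 and 98.1), and inside AFF4, a scaffold of the super elongation complex (chr5:132877986-132878496, 94.1 and 95.2). Away from gene ends they were inside SLC22A4, an organic cation transporter (chr5:132301858-132302361, 99.3 and 99.8), inside ADAMTS12, a secreted metalloprotease (chr5:33549918-33550429, 99.6 and 99.1), and inside the non-coding gene LINC01194 (chr5:12758091-12758601, 99.7 and 98.9). Of the 6, 5 had LNCaP percentiles above 97 in both libraries and no summit within the merged window in either resistant library. Exons and introns were not analysed here.

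Resistant-specific regions were fewer, and percentiles are not compared between the classes because the lists differ in length. The highest near ones were at ERAP1 (chr5:96935621-96936128, 93.9 and 92.5), at the start of SMAD5, a transducer of bone morphogenetic protein signals (chr5:136132584-136133089, 92.8 and 84.0), and at LOC105377730 (chr5:172772267-172772775, 83.8 and 82.5), 1326 bp from an end of DUSP1, a phosphatase of mitogen-activated kinases. At SMAD5 the resistant summits lay 11 and 6 bases before the listed start, in the promoter shown above. Within 3 kb of the gene's ends SMAD5 also had LNCaP summits, at 80.03 and 75.99. The highest away ones were near LOC124901043 (chr5:112533430-112533936, 97.4 and 87.4), inside ABLIM3, an actin-binding protein gene (chr5:149153855-149154360, 95.4 and 84.5), and at chr5:121108786-121109303 (95.6 and 72.2), 213506 bp from the nearest gene end.

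The shared regions with the lowest changes lay both near and away from gene ends. Away from them, the region chr5:171610569-171611159, 26211 bp from LOC124901134, stood at 99.4 and 99.9 in LNCaP and 26.0 and 0.629 in resistant cells, a change of −86.3 points. The next were chr5:166163299-166164271 (93.2 and 90.4, then 12.4 and 9.58) and chr5:109654052-109654801 (95.2 and 92.8, then 21.4 and 9.58). In chr5:166163299-166164271 different summits were compared, at 166164002 and 166164021 in LNCaP and 166163596 and 166163549 in resistant cells. In chr5:109654052-109654801 the resistant replicate 2 summit lay at 109654551, apart from 109654312 and 109654302 in LNCaP and 109654324 in resistant replicate 1. Near gene ends the lowest was at STC2, which encodes the secreted glycoprotein stanniocalcin-2 (chr5:173315443-173316096), with 92.4 and 89.3 in LNCaP and 18.1 and 0.723 in resistant cells. It was followed by regions at the pseudogene AACSP1 (change −70.0) and at OSMR-DT, a non-coding gene beside the oncostatin M receptor gene (change −67.2). The STC2 region lay 12645 bp from the STC2 start, where the promoter's summit stood at 90.9 and 94.8 in LNCaP and 94.6 and 91.5 in resistant cells.

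Shared regions that ranked higher in resistant cells were led near gene ends by SDHAP3 (chr5:1594211-1594860), from 1.89 and 13.6 in LNCaP to 89.0 and 83.3 in resistant cells. SDHAP3 is a pseudogene of SDHA, so its reads may belong to a near-identical copy. CAMK4 followed (chr5:111223906-111224650), from 23.6 and 7.62 to 85.5 and 73.5, and then PCDHA13 in the clustered protocadherin genes (chr5:140882016-140882930), from 4.70 and 3.23 to 72.9 and 53.3. Away from gene ends the region inside ZDHHC11B (chr5:777345-778073, change 63.8) also belongs to a duplicated gene, and the others were inside SPRY4-AS1 (chr5:142341955-142342802, change 60.2) and at chr5:65103166-65103692 (change 58.5). The CAMK4 region lay inside the longest run of low bins. Merged windows could hold different summits here as well. The LNCaP summits lay at 111224400 and 111224200 for CAMK4 and at 140882680 and 140882266 for PCDHA13. They lay at 777621 and 777823 for ZDHHC11B and at 142342205 and 142342552 for SPRY4-AS1.

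For genes, the value in a library was the percentile of the strongest summit within 3 kb of either end. Of the 904 protein-coding genes of chromosome 5, 625 had a summit in all 4 libraries, 40 in both LNCaP libraries alone and 15 in both resistant libraries alone. These shares of 69.1%, 4.42% and 1.66% were near the 69.2%, 3.84% and 1.72% of the other autosomes. Both resistant values lay below both LNCaP values in 225 of the 625 (36.0%, against 25.9% on the other autosomes) and above them in 106 (17.0%, against 25%). The median change was −1.35 points, against −0.104 elsewhere. Of 130 listed genes of the chromosome in 6 groups, 104 had a summit in all 4 libraries, of which 31 (29.8%) lay below and 22 (21.2%) above, with a median change of −0.761.

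The few listed genes of androgen and steroid biology, chosen with earlier results of these data known, lay more often higher than lower in resistant cells. Of 14 genes, 11 had a summit in all 4 libraries, of which 5 lay above, 1 below and 5 overlapped, with a median change of 3.64 points. SRD5A1 stood at 56.5 and 56.2 in LNCaP and 79.6 and 81.0 in resistant cells, with a pooled SD of 0.698. PRLR, the prolactin receptor gene, stood at 65.4 and 81.5 in LNCaP and 91.4 and 84.8 in resistant cells. HSD17B4, which encodes a peroxisomal enzyme that also oxidises oestradiol, was the 1 lower gene, at 97.2 and 96.5 and then 92.0 and 81.8. Different summits were compared at both genes with a printed promoter. At HSD17B4 the LNCaP summits lay 287 and 256 bases after the start, outside the sequence shown, and both resistant ones 13 before it. At SRD5A1 they lay at −403 and −67 bases from the start in LNCaP and at 235 and −82 in resistant cells, with negative values before the start. The gene for the glucocorticoid receptor, NR3C1, had no summit within 3 kb of either end of the gene in any library, and a weak one (percentile 5.11) within 500 bp of its listed start, which lies inside the gene, in resistant replicate 1.

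Neuronal and neuroendocrine genes differed in both directions. Of 39, 21 had a summit in all 4 libraries, with 8 below, 5 above and 8 overlapping (median change −4.91 points). The 38.1% below was near the 36.0% of all protein-coding genes of the chromosome, and 23.8% lay above, against 17.0%. SEMA5A, an axon guidance gene, stood at 79.1 and 89.3 in LNCaP and 60.4 and 49.4 in resistant cells, and SNCAIP, which encodes a synuclein-binding protein, at 56.6 and 45.2 and then 27.0 and 30.9. The SEMA5A summits were not at its promoter, since within 500 bp of its start only resistant replicate 1 had one, at 5.30. NR2F1, an orphan nuclear receptor gene linked to cell dormancy, stood at 51.9 and 39.9 in LNCaP and 80.2 and 69.7 in resistant cells, and at its promoter alone, within 500 bp of the start, at 25.1 and 21.8 and then 80.2 and 69.7. SNCB, the beta-synuclein gene, stood at 45.002 and 51.7 and then 85.2 and 67.4. NEUROG1, a proneural transcription factor gene, had summits in the resistant libraries alone (44.6 and 19.1), and NREP, a neuronal regeneration gene, in LNCaP alone (51.5 and 35.1).

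Of 33 growth signalling and tumour suppressor genes, 30 had a summit in all 4 libraries, with 10 below, 8 above and 12 overlapping (median change −3.60 points). Below were 33.3% and above 26.7%, against 36.0% and 17.0% of all protein-coding genes of the chromosome. FGF1, a fibroblast growth factor gene, stood at 94.7 and 93.9 in LNCaP and 64.8 and 54.2 in resistant cells, and DAB2, an endocytic adaptor and suppressor of growth signals, at 89.9 and 80.7 and then 47.0 and 60.2. At the DAB2 promoter alone the values were 74.7 and 74.97 in LNCaP and the same 47.0 and 60.2 in resistant cells. Different summits were compared there. The LNCaP summits lay 90 and 80 bases after the start, outside the sequence shown. In resistant cells they lay at −207 and 29 bases from the start, with negative values before it. FBN2, a microfibril gene, stood at 4.70 and 13.6 in LNCaP and 51.7 and 33.9 in resistant cells, and FST, the activin-binding follistatin gene, at 44.8 and 44.6 and then 76.9 and 46.5, where the resistant libraries differed by more than the cell types did. PDGFRB, a growth factor receptor gene, had summits in LNCaP alone (25.1 and 39.3), as did LIFR, the leukaemia inhibitory factor receptor gene (8.58 and 20.4). APC stood at 88.3 and 90.5 in LNCaP and 92.2 and 86.2 in resistant cells, which overlapped.

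**Figure D5:**
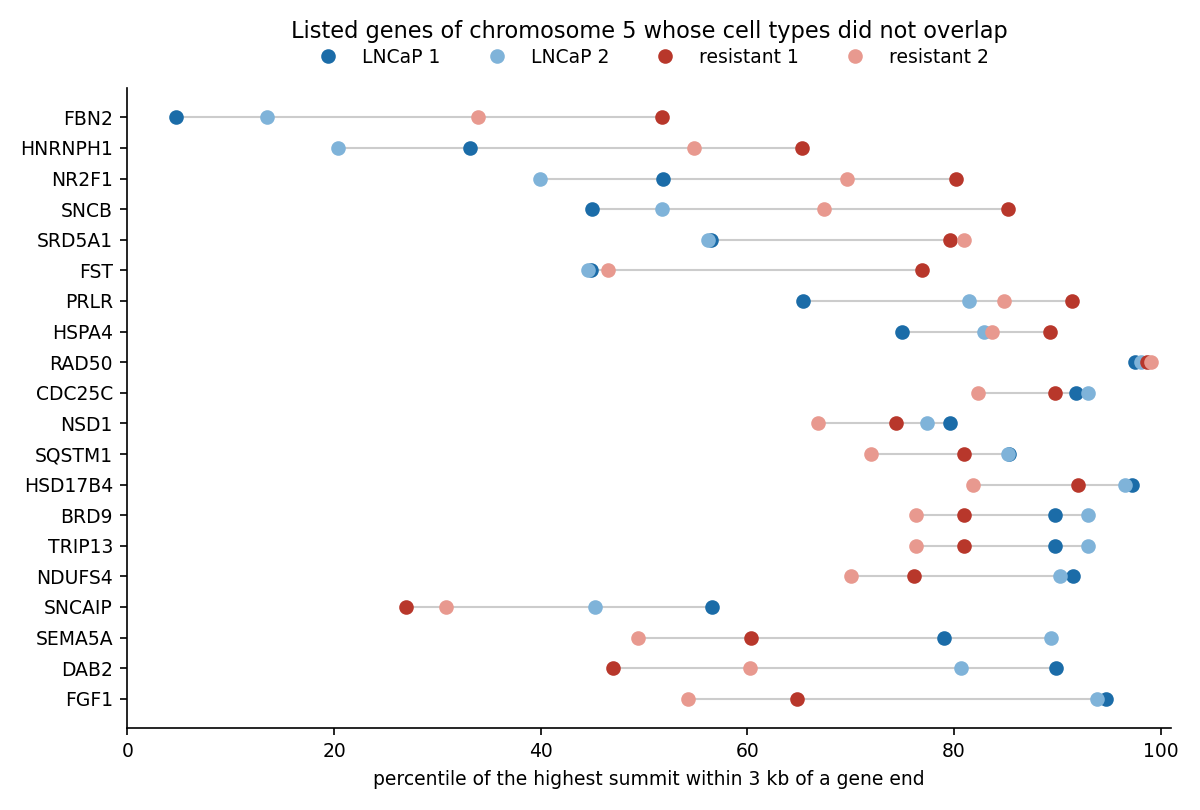
For each named gene with a summit in all 4 libraries, points give the percentile (x axis) of its strongest summit within 3 kb of a gene end in each library, ordered by the change in mean percentile. The genes were picked for having groups that do not overlap, from FGF1 at −34.8 points to FBN2 at 33.7, and RAD50 stands at 97.6 to 99.1 in all 4 libraries.

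All 18 cell cycle and DNA repair genes had a summit in all 4 libraries, and 14 overlapped (77.8%, against 47.0% of all protein-coding genes of chromosome 5 and 49.1% of those elsewhere), with a median change of −0.866. TRIP13, a spindle checkpoint gene, shares its start region with the chromatin reader gene BRD9, and both stood at 89.8 and 93.0 in LNCaP and 80.9 and 76.3 in resistant cells. Within 500 bp of the TRIP13 start the order was the opposite, at 65.4 and 65.5 in LNCaP and 80.9 and 76.3 in resistant cells, because the strongest LNCaP summit within 3 kb was another one. CDC25C, a phosphatase gene of mitotic entry, had a change of −6.37, and RAD50, a double-strand break repair gene, of 1.06. Of 9 chromatin genes 8 had a summit in all 4 libraries, 3 of them below (37.5%) and 0 above. Among all protein-coding genes of the chromosome with a summit in all 4, 36.0% lay below and 17.0% above. BRD9 and the histone methyltransferase gene NSD1 (79.7 and 77.4, then 74.4 and 66.8) were the lowest chromatin genes. Within 500 bp of the BRD9 start the values were the same as at the TRIP13 start, and so higher in resistant cells.

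Of 18 housekeeping genes 17 had a summit in all 4 libraries, with 6 below, 3 above, 8 overlapping and a median change of −0.608. The 35.3% below and 17.6% above were near the 36.0% and 17.0% of all protein-coding genes of the chromosome. NDUFS4, a subunit gene of respiratory complex I, stood at 91.5 and 90.3 in LNCaP and 76.2 and 70.0 in resistant cells, and its summits lay between 287 and 355 bases after the start, outside the promoter sequence shown. SQSTM1, an autophagy receptor gene, had a change of −8.78. HNRNPH1, a splicing factor gene, stood at 33.2 and 20.4 in LNCaP and 65.3 and 54.8 in resistant cells, and HSPA4, a chaperone gene, at 74.9 and 82.9 and then 89.3 and 83.6.

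Promoter sequence, which the choice of chromosome did not use, differed little. The promoters of 790 protein-coding genes of chromosome 5 had a median of 22 CpG dinucleotides and 61.7% GC, against 22 and 63.0% for 14311 promoters of the other autosomes. Of these, 399 (50.5%) had a summit within 500 bp of the start in all 4 libraries, against 51.1% elsewhere, and 14 (1.77%) had one in LNCaP alone and 31 (3.92%) in resistant cells alone, near the 1.80% and 3.47% elsewhere. The 31 had a median of 27 CpG and the 14 a median of 8, against 26 and 8 elsewhere. The 222 promoters without a summit in any library had a median of 6. Low-CpG promoters (0 to 4 CpG) on chromosome 5 had a summit in 12.9% and 13.8% of cases in LNCaP and 14.7% and 9.48% in resistant cells. On the other autosomes the low-CpG shares were 11.9% and 11.2% and then 8.57% and 5.74%. Promoters with 25 or more CpG had one in 76.4% and 77.9% and then 86.8% and 82.2%, near the 79.3% and 79.8% and then 87.4% and 82.7% elsewhere.

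Among the 399 promoters the median change was −0.608 points, against 0.520 for 7309 elsewhere. Both resistant values lay below in 117 (29.3%, against 19.8% elsewhere) and above in 87 (21.8%, against 28.4% elsewhere), so more lay below than above on chromosome 5 and fewer on the other autosomes. GGGCGG occurred in 57.3% of the 117 and 73.6% of the 87, against 65.2% and 81.2% in the same classes of the other autosomes and 58.9% of all promoters. CCGGAAG occurred in 27.4% of the 117 and 17.2% of the 87, against 24.6% and 20.2% elsewhere and 14.4% of all promoters. The median number of CpG was 24 in the 117 and 29 in the 87, the same as on the other autosomes. CCAAT occurred in 35.04% of the 117 and 35.6% of the 87, against 41.4% and 38.7% elsewhere, and the TATA box in 4.27% and 4.60%, against 6.15% and 4.68%. The NRF1 core occurred in 3.42% and 8.05%, against 6.36% and 7.57%, the forkhead core in 0% and 4.60%, against 2.28% and 2.32%, and the CREB and ATF site in 3.42% and 0%, against 3.94% and 3.96%. The SP and ETS letters thus differed between lower and higher promoters in the same direction on chromosome 5 and elsewhere, which was not tested. CCAAT and the TATA box were nearly equal in both classes on chromosome 5, so no direction is given for them.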

How the data were processed

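ATAC-seq summit lists of 2 LNCaP and 2 enzalutamide-resistant libraries were analysed, in hg38 coordinates. Submitters' processing notes name Bowtie2 2.2.5, SAMtools 1.6 and MACS2 2.2.6; read filters and Tn5 shift settings are not given in the sources used here. The score column deposited by the authors is −log10 of a p-value or q-value per summit (which of them is not stated), called per library, with 1 summit per peak. A score rises with depth, and the lists hold no read counts, so intervals cover counting error only. Scores were ranked within a library as percentiles, windows of 250 bp per side were merged, and gene ends and promoter sequences came from RefSeq (GRCh38.p14). The gene table matched 130 of 130 listed genes. Starts and strands came from the promoter table, which is not complete.

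No test was run, because the chromosome was chosen on these values. The members, gene lists and motifs were chosen with earlier results of these data known. Named per list were the 2 lowest and 2 highest changes among genes in all 4 libraries whose cell types did not overlap, and genes found in both libraries of 1 cell type alone. NR3C1, APC, and the promoter values of STC2, TRIP13, BRD9 and SEMA5A, were added after their values were seen. Named regions were the 3 most extreme of each class. Genes of the longest run were 10 picked from its 53. Replicate numbers are called batch in the labels; over shared regions the replicate differences of the cell types had a Pearson r of −0.0220 on chromosome 5 and −0.0126 elsewhere, and values within each number are given beside the results. Alternatives changed the summit window (100 or 500 bp), kept scores from 10 upwards or lists of equal length, varied near distances, gene sets, bins and minimum counts, and left out each library. The code was tested on simulated data and ran in Python 3.11.15 with pandas 2.3.3, numpy 2.4.6 and scipy 1.17.1. Some marker genes are not reported here.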

Additional observations from a re-analysis of the deposited data

How the results depend on the processing

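Over the whole chromosome, the change in summit share, the difference in presence and the rank difference were negative under every alternative tried. Their sizes moved. The summit share is taken of all autosomal summits of a library, so its change also depends on the other autosomes. Counts and start-site values under alternatives were chosen after seeing the data. The change in summit share was −0.888 points with scores of at least 10 and −0.826 with equal numbers of summits. The difference in presence was −4.87 and −5.54 with windows of 100 and 500 bp, −4.58 with scores of at least 10, −4.30 with equal numbers and −4.81 when 1 LNCaP library sufficed. The rank difference was −4.73 with 500 bp windows, −6.93 with scores of at least 10, −7.36 with equal numbers and −7.97 with percentiles among shared regions. The share of low bins ranged from 68.5% to 77.5%. At listed gene starts the presence difference turned to 0.514 with scores of at least 10 and to 1.28 with equal numbers. The cause was not tested.

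With scores of at least 10 the counts were 924 shared, 1368 LNCaP-specific and 158 resistant-specific regions, with 344 below and 131 above. With equal numbers of summits 867 were LNCaP-specific and 523 resistant-specific, with 341 below and 385 above. Paired by the replicate block, replicate 1 gave a presence difference of −5.41 and replicate 2 of −4.57, and replicate 2 gave a rank difference of −6.61. In that block replicate 1 had 2575 shared, 4392 LNCaP-specific and 980 resistant-specific regions, with 1752 below and 823 above, and replicate 2 had 4481 LNCaP-specific and 494 resistant-specific, with 1340 below and 460 above, since 1 library per cell type sets the class. Leaving out each library gave presence from −5.27 to −4.91, rank from −5.98 to −4.69, summit share from −0.972 to −0.900, low bins from 68.7% to 76.0%, shared regions from 1715 to 2331, LNCaP-specific from 2831 to 4281 (most without LNCaP replicate 2), resistant-specific from 336 to 819 (most without resistant replicate 2), below from 952 to 1385 (most without resistant replicate 2) and above from 263 to 530 (418 without LNCaP replicate 1, 363 without LNCaP replicate 2 and 530 without resistant replicate 2). Depth is unknown, so a region missing from the shorter resistant lists may have gone undetected there.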

Other observations

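The microRNA genes of chromosome 5, which were chosen after their values were seen, fell into the same classes in shares near those of the 1395 hairpins of the other autosomes. Of 66 hairpins in the RefSeq table, 13 had a summit within 3 kb in all 4 libraries, 7 in both LNCaP libraries alone, 1 in both resistant libraries alone and 33 in none (19.7%, 10.6%, 1.52% and 50%, against 21.5%, 8.53%, 2.65% and 50.3% elsewhere). Both resistant percentiles lay below both LNCaP percentiles at 3 of the 13 (23.1%, against 37.0% elsewhere) and above them at 0 (26.7% elsewhere). MIR4804, inside the nuclear import receptor gene TNPO1 (chr5:72878591-72878663), had 92.9 and 91.9 in LNCaP and 49.0 and 45.4 in resistant cells. MIR5003, inside the ubiquitin ligase gene NEURL1B (chr5:172662165-172662263), had 80.3 and 79.7 and then 49.9 and 26.6. MIR6830, inside the prolyl hydroxylase gene P4HA2 (chr5:132217849-132217918), had 82.8 and 91.0 and then 80.1 and 74.98. A summit beside a hairpin is not a measure of the microRNA, and the hosts share the same windows. The 5p mature sequences are shown 5′ to 3′ from RefSeq (GRCh38.p14) with the seed, bases 2 to 8, in capitals, and no seed is shared among them.
hsa-miR-4804-5p: uUGGACGGuaagguuaagcaa
hsa-miR-5003-5p: uCACAACAaccuugcaggguaga
hsa-miR-6830-5p: cCAAGGAAggaggcuggacauc

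MIR3141 had summits in the resistant libraries alone, at 54.8 and 23.8. MIR449A, MIR449B and MIR449C lie together inside CDC20B and share 1 summit, at 69.2 and 59.8 in LNCaP and 78.8 and 68.1 in resistant cells, which overlapped.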
